A study of Homo sapiens with 16 samples.

Results

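The 10 genes described here are 4 members of the carcinoembryonic antigen family (CEACAM1, CEACAM5, CEACAM6 and CEACAM7) and 6 membrane-associated mucins (MUC1, MUC4, MUC13, MUC15, MUC16 and MUC20), out of 20166 gene symbols measured by RNA sequencing in RWPE1 cells. They were taken by gene symbol, and each has 1 row in the deposited table. RWPE1 is an established line of human prostate epithelium, immortalised with papillomavirus sequence, that grows with basal epithelial features. The labels give the introduced gene as NKX3.1. Cells carrying its T164A mutant construct (4 libraries, numbered 91 to 94) and cells carrying its wild-type construct (6 libraries, 13 to 18) were compared with each other. Both were also compared with cells carrying only the empty vector, an altered pTRIPZ (6 libraries, 1 to 6). Every group therefore carries an introduced vector. The labels state neither an inducer, nor how many clones each line holds, nor whether the libraries of a group came from separate cultures. The p-values here therefore set a group difference against the spread between libraries, which may be technical.

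CEACAMs are immunoglobulin-like surface glycoproteins. CEACAM1 has a transmembrane segment and a cytoplasmic tail that signals through tyrosine phosphatases, whereas CEACAM5, CEACAM6 and CEACAM7 are held in the outer membrane leaflet by a lipid anchor and mediate adhesion between cells. Membrane mucins carry long, heavily O-glycosylated extracellular stretches that form part of the glycocalyx of mucosal epithelia. Their ectodomains can be cleaved and shed, and MUC16 is the source of the ovarian cancer antigen CA125.

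Values are the deposited log2 expression values, and each library holds an estimated 12300000 to 19200000 reads. A level of 2.30 corresponds to about 3 reads in a library (the mean over the libraries) and is called the floor below. A difference is a group mean minus another on this log2 scale, with its SE from limma over all 16 libraries, and a call is a Benjamini-Hochberg adjusted p below 0.05 over all 20166 symbols. Where 1 group mean lies under the floor, the difference is a bound on the group means against the floor, without sampling error. Such a bound depends on the estimated floor. Where both do, no fold is given.

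Basal markers were detected in every group, with 12 of 12 group means above the floor, and KRT5, the main basal keratin, averaged 15.46 in T164A, 16.52 in wild-type and 17.05 in vector libraries. By the same criterion, 10 of 14 prostate luminal markers were detected with T164A, 14 with wild type and 9 with the vector, and of 12 mesenchymal and neuronal markers 12 were detected with T164A and 10 each with wild type and the vector. The summed levels differed widely. The log2 of the summed level of 14 prostate luminal markers was 12.18 to 12.27 in T164A libraries, 15.83 to 16.84 in wild-type libraries and 11.72 to 12.17 in vector libraries. KLK3, which encodes prostate-specific antigen, averaged 0.72 in T164A, 15.11 in wild-type and 2.14 in vector libraries. Over 12 mesenchymal and neuronal markers the summed level was 14.47 to 14.6 in T164A libraries, 12.45 to 12.57 in wild-type libraries and 12.1 to 12.64 in vector libraries. Over 12 general epithelial genes it was 13.17 to 13.34 in T164A libraries, 15.28 to 15.39 in wild-type libraries and 15.21 to 15.34 in vector libraries. The part of these marker levels in the results below was not tested. In bulk RNA, fewer cells expressing a gene and less RNA of it per cell cannot be told apart.

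With the T164A mutant, 7 of the 10 genes were lower than with the vector and none was higher: CEACAM1, CEACAM5, CEACAM6, MUC1, MUC15, MUC16 and MUC20. The same test called 27.2% of all symbols lower and 37.1% higher. Of the 10 genes, these 7 alone had no overlap between T164A and vector libraries, beside 22.4% of all symbols not overlapping on the lower side and 33.1% on the higher side. Overlap and calls are drawn from the same values. Against the wild-type construct, 6 genes were lower with T164A and none higher (background 26.7% lower and 35.1% higher), the same genes without CEACAM1. Of the 10 genes, these 6 alone did not overlap between T164A and wild type, beside 21.2% of all symbols on the lower side and 31.2% on the higher. The wild-type construct itself gave a mixed and smaller change against the vector, with CEACAM1, CEACAM5, CEACAM6 and MUC15 lower and MUC20 higher (background 24.5% lower and 21.0% higher). Of the 10 genes, these 5 alone had no overlap between wild-type and vector libraries, beside 14.8% of all symbols on the lower side and 14.6% on the higher side.

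The median difference over the members was -2.22 for T164A minus vector and -2.16 for T164A minus wild type, beside medians over all symbols of 0.11 and 0.08. For wild type minus vector the members' median was -0.37 and that of all symbols -0.05. With bounds in place of fitted values, the members' median was -4.23 over 7 genes for T164A minus vector (0.16 over all symbols), -2.7 over 8 genes for T164A minus wild type (0.12) and -0.48 over 8 genes for wild type minus vector (-0.07). These medians leave out genes with both means under the floor. For T164A minus vector that dropped CEACAM7, MUC4 and MUC13, and the 7 genes left were the 7 called lower. The value of -4.23 therefore describes the called genes and not all 10. The comparisons with the vector share the 6 vector libraries. Quantile normalization moved the median of the 11167 symbols with a mean log2 value of at least 6 by -0.17 for T164A minus vector, by -0.14 for T164A minus wild type and by -0.03 for wild type minus vector. Under it, calls over all symbols for T164A minus vector were split into 6201 higher and 6940 lower, against 7487 higher and 5490 lower as deposited. The 7 members were lower either way.

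**Figure D1:**
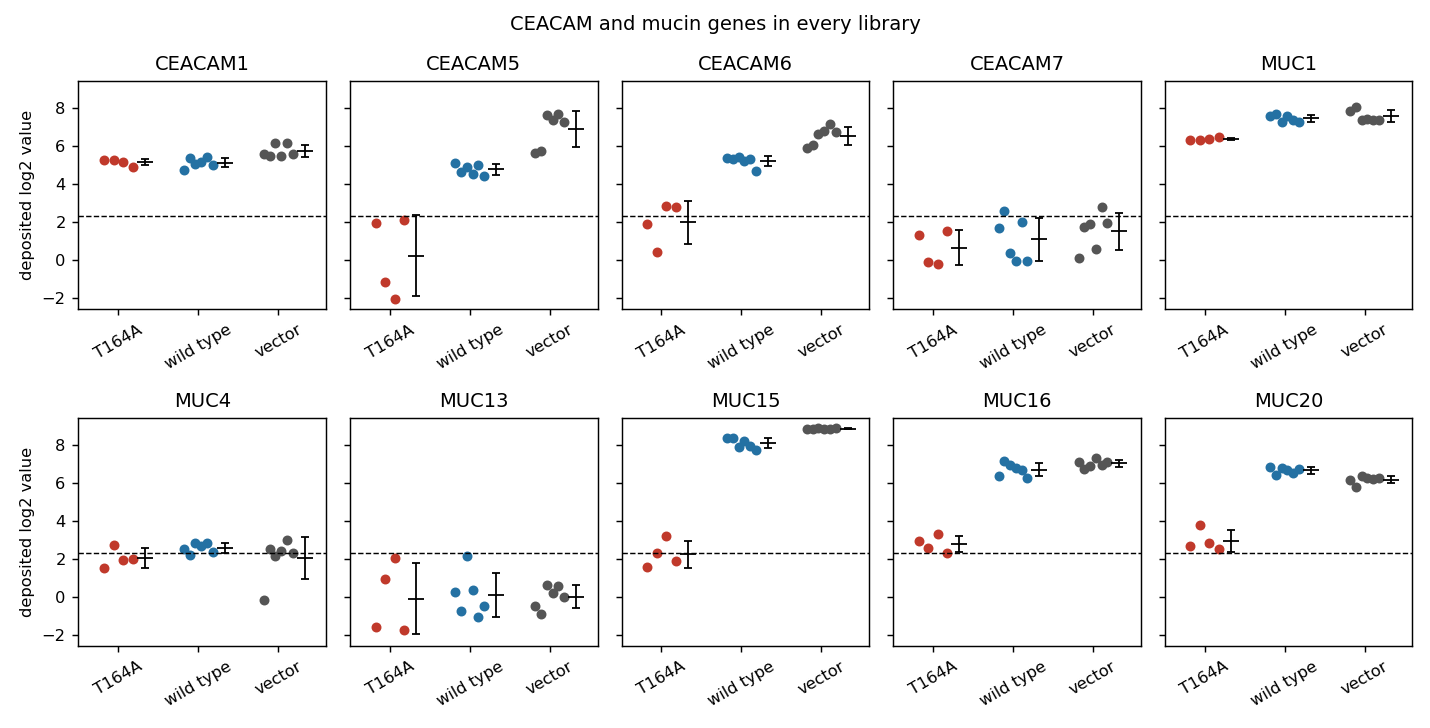
Deposited log2 value (y axis) of each of the 10 genes in every library, with T164A, wild-type and vector libraries from left to right, and group mean ± SD beside the points. The dashed line marks the floor of 2.30. CEACAM5, CEACAM6, MUC15, MUC16 and MUC20 sat well above the floor in wild-type and vector libraries and near or under it in T164A libraries, whereas CEACAM1 and MUC1 stayed above it in all 3 groups.

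CEACAM5, CEACAM6 and CEACAM7 lie side by side on chromosome 19, and CEACAM1 lies on the same chromosome. The 250 bases before the start of each are shown because the upstream sequences of these 4 genes are related. CEACAM5 and CEACAM6 changed alike, CEACAM1 changed less, and CEACAM7 had every group mean under the floor. They are from RefSeq, build GRCh38.p14, and read 5′ to 3′ on the gene's strand. Capitals mark exact matches, on either strand, to an E-box (CACGTG), a GC box (GGGCGG) or a TATA box (TATAAA).
CEACAM5, chr19:41708376-41708625, plus strand: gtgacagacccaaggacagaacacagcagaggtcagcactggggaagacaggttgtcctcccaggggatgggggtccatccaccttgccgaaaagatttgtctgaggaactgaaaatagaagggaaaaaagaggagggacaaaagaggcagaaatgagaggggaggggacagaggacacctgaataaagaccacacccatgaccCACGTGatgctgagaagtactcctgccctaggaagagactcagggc
CEACAM6, chr19:41755280-41755529, plus strand: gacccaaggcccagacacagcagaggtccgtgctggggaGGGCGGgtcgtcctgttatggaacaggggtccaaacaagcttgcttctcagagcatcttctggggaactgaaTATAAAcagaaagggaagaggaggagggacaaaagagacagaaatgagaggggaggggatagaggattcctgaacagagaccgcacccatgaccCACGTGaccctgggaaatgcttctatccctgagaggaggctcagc
CEACAM7, chr19:41688271-41688520, minus strand: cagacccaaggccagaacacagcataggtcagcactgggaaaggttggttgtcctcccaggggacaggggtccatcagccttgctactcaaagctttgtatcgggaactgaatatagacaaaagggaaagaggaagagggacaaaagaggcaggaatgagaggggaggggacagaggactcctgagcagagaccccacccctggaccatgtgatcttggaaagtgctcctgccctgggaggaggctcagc
CEACAM1, chr19:42528482-42528731, minus strand: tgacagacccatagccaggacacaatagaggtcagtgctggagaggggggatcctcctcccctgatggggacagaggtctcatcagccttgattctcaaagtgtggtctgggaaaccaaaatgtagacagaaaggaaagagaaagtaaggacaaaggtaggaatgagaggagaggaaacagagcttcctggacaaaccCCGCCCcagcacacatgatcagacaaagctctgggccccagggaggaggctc

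In pairwise alignment, CEACAM5 and CEACAM7 were 80.5% identical over this stretch, CEACAM6 and CEACAM7 79.9%, and CEACAM5 and CEACAM6 74.6%. CEACAM1 was 66.2% to 71.9% identical to the other 3. The letters CACGTG stood 46 to 41 bases before the start in CEACAM5 and 45 to 40 bases before it in CEACAM6, and not in the windows of CEACAM7 or CEACAM1. They occurred in 6.49% of 27305 RefSeq promoter windows of the same length. CEACAM6 also held TATAAA, 139 to 134 bases before the start, which 11.1% of windows hold. A GC box, held by 42.3% of windows, stood in those of CEACAM6 and CEACAM1. These are letter matches only, and their relation to the levels of the genes was not tested.

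CEACAM5, the carcinoembryonic antigen, fell below the floor with the mutant and was lower with the wild-type construct than with the vector. It read 1.96, -1.15, -2.05 and 2.11 in T164A libraries 91 to 94. In wild-type libraries its lowest, median and highest values were 4.4, 4.79 and 5.11, and in vector libraries they were 5.62, 7.31 and 7.67. All 4 T164A libraries were under the floor, all wild-type libraries lay above them, and all vector libraries lay above both. The T164A level was at least 24.0-fold lower than the vector level (log2 difference -4.58 or less, adjusted p = 1.96e-10) and at least 5.54-fold lower than the wild-type level (-2.47 or less, adjusted p = 2.14e-07). With the wild-type construct CEACAM5 averaged 4.77 ± 0.27 (SD, n = 6), against 6.88 ± 0.96 (SD, n = 6) with the vector, a 4.33-fold lower level (difference -2.11, SE 0.53, limma adjusted p = 0.00183). Without vector libraries 3, 4 and 6 that difference was -1.57 and no longer called (adjusted p = 0.0813), and without vector libraries 1 and 2 it was -2.72 (adjusted p = 0.000338). Of the 50-base stretches of its longest annotated transcript, 20.0% also occur in transcripts of other genes. Most of these are shared with the annotated gene AC243967.1, and far fewer with CEACAM6 or CEACAM3.

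CEACAM6, a lipid-anchored relative that can pair with CEACAM5, followed the same order of groups. Its values were 1.89, 0.44, 2.83 and 2.8 in T164A libraries 91 to 94, with libraries 93 and 94 just over the floor. The lowest, median and highest values were 4.7, 5.33 and 5.42 in wild-type libraries and 5.92, 6.69 and 7.16 in vector libraries, with no overlap between any of the 3 groups. By group means, the T164A level was at least 19.0-fold lower than that of the vector (difference -4.25 or less, adjusted p = 7.45e-12) and at least 7.62-fold lower than that of the wild-type construct (-2.93 or less, adjusted p = 5.95e-09). The 95% intervals of the fitted differences, -5.27 to -3.85 and -3.95 to -2.53, also hold differences smaller than these bounds. The wild-type construct gave a 2.49-fold lower level than the vector (difference -1.32, SE 0.31, limma adjusted p = 0.000904). Shared 50-base stretches made up 7.92% of its transcript, with more of them shared with AC243967.1 than with CEACAM5 or CEACAM1.

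CEACAM1, the signalling member, was lower with both constructs by smaller amounts. It read 5.29, 5.25, 5.18 and 4.9 in T164A libraries. Wild-type libraries had a lowest, median and highest value of 4.73, 5.1 and 5.4, and vector libraries of 5.47, 5.57 and 6.16. Both constructs lay below every vector library, the wild-type maximum of 5.4 by a narrow margin under the vector minimum of 5.47. Against the vector, CEACAM1 was 1.49-fold lower with T164A (difference -0.58, SE 0.19, adjusted p = 0.0108) and 1.53-fold lower with the wild-type construct (-0.62, SE 0.17, adjusted p = 0.00469). Neither call held when a fold above 1.2 was required (adjusted p = 0.106 for T164A and 0.11 for wild type), and the wild-type call was also lost when libraries that lay close together were averaged (-0.59, adjusted p = 0.137). T164A minus wild type was 0.04 with a 95% interval of -0.36 to 0.44 (adjusted p = 0.89), an interval that does not reach -0.58, the T164A difference from the vector.

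CEACAM7, best known from colonic epithelium, was not detectably expressed: 0 of 4 T164A, 1 of 6 wild-type and 1 of 6 vector libraries exceeded the floor. The means were 0.64 with T164A, 1.1 with wild type and 1.51 with the vector. It was called in none of the 3 comparisons (adjusted p = 0.242 for T164A minus vector, 0.564 for T164A minus wild type and 0.604 for wild type minus vector). In the same vector libraries its neighbour CEACAM5 averaged 47.3 ± 24.4 estimated reads per kilobase of transcript, beside 0.686 ± 0.724 for CEACAM7 (SD, n = 6 each).

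MUC15, a small membrane mucin, had the highest level per kilobase of the 10 genes in vector libraries and fell to about the floor with the mutant. It read 1.59, 2.3, 3.2 and 1.86 in T164A libraries 91 to 94. Its lowest, median and highest values were 7.72, 8.07 and 8.36 in wild-type libraries and 8.81, 8.84 and 8.88 in vector libraries. The vector libraries were almost identical for this gene, and the 3 groups did not overlap. By group means, T164A was at least 93.3-fold lower than the vector (difference -6.54 or less, adjusted p = 9.66e-20) and at least 54.8-fold lower than the wild-type construct (-5.77 or less, adjusted p = 1.49e-18). The 95% intervals of the fitted differences, -7.02 to -6.2 and -6.25 to -5.43, also hold differences smaller than these bounds. The wild-type construct gave a 1.7-fold lower level than the vector (-0.77, SE 0.18, limma adjusted p = 0.000852), a call lost when close libraries were averaged (-0.66, adjusted p = 0.0863). In gene order by start position MUC15 comes next to ANO3, with which it shares 2.57% of its 50-base stretches, matched on either strand. ANO3 itself averaged 0.86 in T164A, 1.54 in wild-type and 1.58 in vector libraries, all below the floor.

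MUC16, the very large mucin that carries CA125, fell with the mutant to just above the floor, and its change with the wild-type construct was not called. Values were 2.93, 2.59, 3.32 and 2.31 in T164A libraries, close to the floor but not under it. Wild-type libraries had 6.26, 6.71 and 7.15 as lowest, median and highest value, and vector libraries 6.73, 7.03 and 7.29. The T164A libraries lay far below both other groups, which overlapped each other. The difference from the vector was -4.23 (SE 0.2, 18.8-fold lower, limma adjusted p = 5.18e-16) and that from the wild-type construct -3.89 (SE 0.2, 14.9-fold lower, limma adjusted p = 4.2e-15). Wild type minus vector was -0.33 (95% interval -0.7 to 0.03, adjusted p = 0.133). Under quantile normalization it was -0.57 and called (adjusted p = 0.00839).

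MUC1, the broadly expressed epithelial mucin whose tail signals through beta-catenin and receptor kinases, kept a substantial level with the mutant. It read 6.33, 6.34, 6.36 and 6.47 in T164A libraries. The lowest, median and highest values were 7.28, 7.48 and 7.67 in wild-type libraries and 7.35, 7.42 and 8.05 in vector libraries. The T164A libraries were tightly grouped and below every other library. MUC1 was 2.31-fold lower with T164A than with the vector (difference -1.21, SE 0.13, limma adjusted p = 6.34e-09) and 2.12-fold lower than with the wild-type construct (-1.09, SE 0.13, adjusted p = 4.77e-08). Wild type minus vector was -0.12 with a 95% interval of -0.36 to 0.12 (adjusted p = 0.44). Its sign turned to 0.06 without vector libraries 1 and 2 (adjusted p = 0.663), and under quantile normalization it was -0.31 and called (adjusted p = 0.0269).

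The upstream window of MUC1 is shown because it differs in make-up from the CEACAM windows, and its relation to MUC1 levels was not tested. It is again from RefSeq GRCh38.p14, the first of 2 starts listed for the gene, with the same motifs in capitals.
MUC1, chr1:155192916-155193165, minus strand: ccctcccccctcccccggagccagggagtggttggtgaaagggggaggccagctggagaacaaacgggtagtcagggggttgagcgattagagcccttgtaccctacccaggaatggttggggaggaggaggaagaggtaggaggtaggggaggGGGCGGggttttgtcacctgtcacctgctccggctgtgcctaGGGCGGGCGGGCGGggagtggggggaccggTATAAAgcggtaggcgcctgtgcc

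It held 4 GC boxes, 3 of them overlapping in a run between 54 and 41 bases before the start, and a TATA box 24 to 19 bases before it. Among the 8 members with an entry in the promoter table, 5 held a GC box and 2 a TATA box. An AP-1 site (TGAGTCA) stood in the MUC13 window only of these 8, beside 4.16% of all windows. MUC15 and MUC20 had no entry.

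MUC20, a short mucin known to bind the receptor MET, was the only gene of the 10 that was higher with the wild-type construct. It read 2.66, 3.77, 2.81 and 2.52 in T164A libraries. Wild-type libraries had a lowest, median and highest value of 6.39, 6.7 and 6.81, and vector libraries of 5.78, 6.22 and 6.37. No groups overlapped, though the lowest wild-type library exceeded the highest vector library by only a little. T164A was 9.4-fold lower than the vector (difference -3.23, SE 0.2, limma adjusted p = 2.16e-13) and 13.1-fold lower than the wild-type construct (-3.71, SE 0.2, limma adjusted p = 2.05e-14).

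The higher level with the wild-type construct, 1.39-fold (difference 0.48, SE 0.18, limma adjusted p = 0.0358), was the least stable call among the members. It was lost under quantile normalization (0.17, adjusted p = 0.461) and on leaving out any 1 of vector libraries 1, 2 and 5 or wild-type libraries 13, 15, 16 and 18 (difference 0.4 to 0.53 and adjusted p up to 0.0938 over all libraries left out in turn). Of the 50-base stretches of the MUC20 transcript, 69.1% also occur in other annotated transcripts, those of the pseudogene MUC20P1 and of MUC20-OT1. How the counting divided reads among these is unknown, so all MUC20 values are uncertain.

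MUC4, a membrane mucin that binds ERBB2 and lies next to MUC20 on chromosome 3, stayed near the floor. It exceeded the floor in 1 of 4 T164A, 5 of 6 wild-type and 4 of 6 vector libraries, with means of 2.04 with T164A, 2.57 with wild type and 2.04 with the vector. None of its comparisons was called (adjusted p = 0.996 for T164A minus vector, 0.374 for T164A minus wild type and 0.355 for wild type minus vector). MUC13, a mucin of intestinal epithelium, exceeded the floor in no library of any group, with means of -0.09 with T164A, 0.08 with wild type and 0.00 with the vector. The adjusted p was 0.93 for T164A minus vector, 0.863 for T164A minus wild type and 0.94 for wild type minus vector. Per kilobase of transcript, MUC4 had 0.241 ± 0.0611 estimated reads in wild-type libraries, where its neighbour MUC20 had 34.8 ± 3.9 (SD, n = 6 each).

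**Figure D2:**
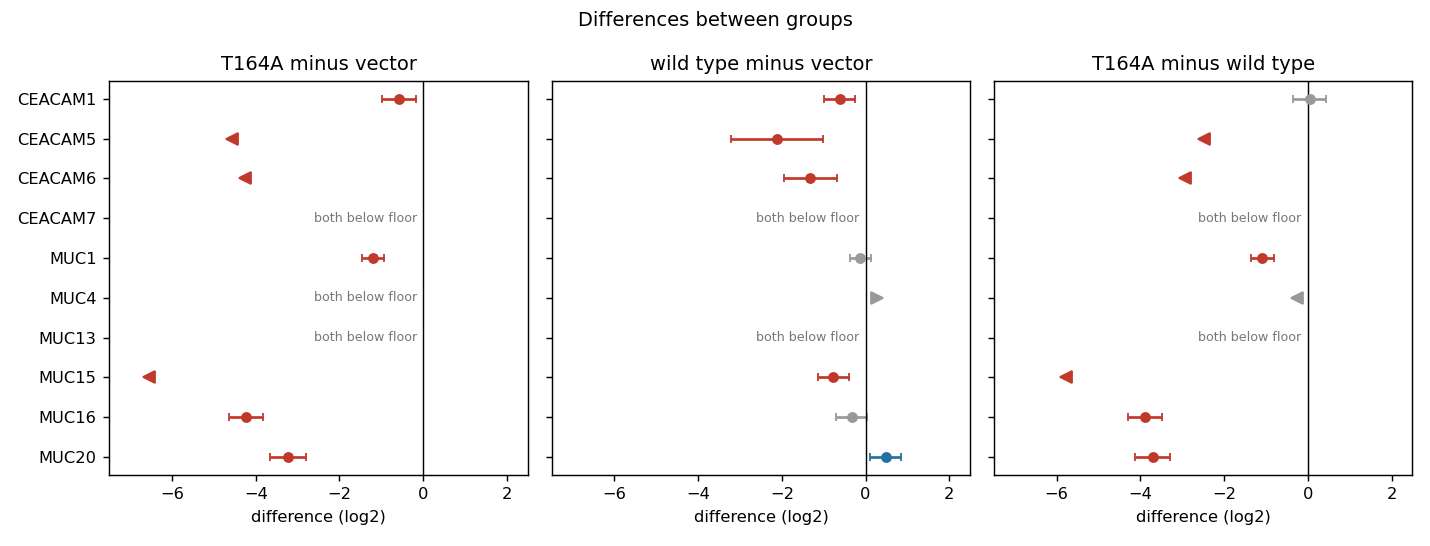
Differences in group mean (x axis, log2) for the 10 genes (rows) in T164A minus vector, wild type minus vector and T164A minus wild type. Circles are fitted differences with 95% intervals, triangles are bounds against the floor pointing in the direction of the difference, red and blue mark calls that were lower and higher, and grey marks no call. The T164A panels show CEACAM5, CEACAM6, MUC15, MUC16 and MUC20 at -2.47 or below, whereas the wild-type panel spans -2.11 to 0.48.

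Levels were also set per kilobase of the longest coding transcript in GENCODE v29, as estimated normalized reads, so that genes could be ordered. In vector libraries MUC15 came first at 145.0 ± 3.43 reads per kb, followed by CEACAM5 at 47.3 ± 24.4, MUC1 at 46.3 ± 10.2, CEACAM6 at 35.5 ± 11.4, MUC20 at 24.9 ± 3.34, CEACAM1 at 14.9 ± 3.71 and MUC16 at 2.93 ± 0.401 (SD, n = 6 for each). From CEACAM5 to CEACAM1, the vector ranges of all neighbours in this order overlapped. In wild-type libraries the order was MUC15 at 86.0 ± 15.5, MUC1 at 42.0 ± 4.85, MUC20 at 34.8 ± 3.9, CEACAM6 at 13.4 ± 2.28, CEACAM1 at 9.45 ± 1.62, CEACAM5 at 8.97 ± 1.8 and MUC16 at 2.35 ± 0.563 (SD, n = 6). Here MUC1 overlapped MUC20, and CEACAM6, CEACAM1 and CEACAM5 overlapped in turn.

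With T164A the order was headed by MUC1 at 19.5 ± 0.942 and CEACAM1 at 9.64 ± 1.16 reads per kb (SD, n = 4). The T164A means of the other 8 genes were 2.21 or less. MUC16, whose longest transcript has 43816 bases, was thus low per unit length in every group.

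The vector libraries differed among themselves in a gene-specific way, a pattern singled out after its values were seen and given with no test. CEACAM5 read 5.62 and 5.72 in vector libraries 1 and 2 and 7.27 to 7.67 in vector libraries 3 to 6. CEACAM6 likewise read 5.92 and 6.04, against 6.64 to 7.16. MUC1 ran the other way, at 7.86 and 8.05 in libraries 1 and 2 and 7.35 to 7.44 in libraries 3 to 6. MUC15 did not follow, with all 6 libraries between 8.81 and 8.88, and CEACAM1 was highest in libraries 3 and 5 at 6.16 and 6.15.

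By their estimated reads, libraries 1 and 2 formed a close set, and so did 3, 4 and 6. The log2 of the summed level of 16 genes of the upper layers of stratified mucosa was 14.09 and 14.11 in libraries 1 and 2 and 14.26 to 14.47 in libraries 3 to 6. KLK3 exceeded the floor in libraries 3, 4 and 6 (3.76, 4.19 and 3.47) and not in libraries 1, 2 and 5. The part of either in the CEACAM levels was not tested.

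**Figure D3:**
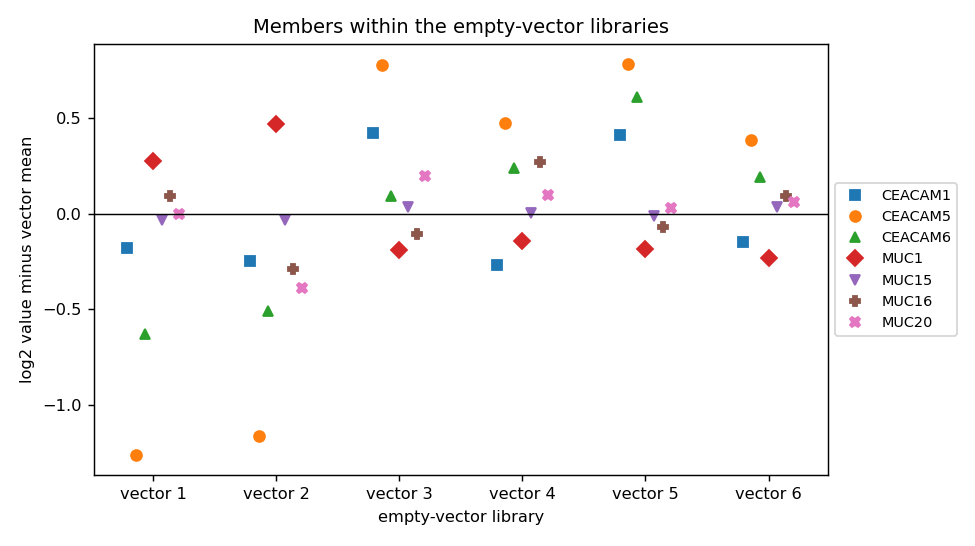
Log2 value minus the mean of the 6 vector libraries (y axis) for the 7 members above the floor in every vector library, by vector library (x axis). CEACAM5 and CEACAM6 were low and MUC1 high in libraries 1 and 2, whereas MUC15 stayed at the line in all 6.

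Among wild-type libraries, number 18 had the lowest value of CEACAM5 (4.4), CEACAM6 (4.7), MUC15 (7.72) and MUC16 (6.26). The same library had the highest luminal marker sum (16.84) and the lowest basal marker sum (17.27) of its group. Library 14, with the lowest luminal sum (15.83) and the highest basal sum (17.74), had the highest MUC16 (7.15) and, at 8.34, the second highest MUC15. Its CEACAM5 (4.66) and CEACAM6 (5.33) lay inside the range of its group, and its MUC20 (6.39) was the lowest of the group. These values stand beside each other as descriptions of single libraries, with no test of the relation.

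Outside the 10 genes, many mucins and most carcinoembryonic antigen relatives lay under the floor. In T164A minus vector both group means were under it for 8 of 16 mucins and 15 of 18 relatives. Of 16 other mucin genes, 2 were higher and 4 lower in T164A minus vector (median with bounds -0.66), 3 higher and 1 lower in wild type minus vector (0.26), and 1 higher and 6 lower in T164A minus wild type (-0.85). PODXL, which encodes the anti-adhesive sialomucin podocalyxin, rose with both constructs against the vector, by 1.44 with T164A (SE 0.08, limma adjusted p = 2.43e-14) and by 1.19 with wild type (SE 0.07, limma adjusted p = 7.71e-13). The other mucin gene called higher in T164A minus vector was MUC3A, at least 3.22-fold by group means (limma adjusted p = 8.34e-06). It averaged 3.99 with T164A, 2.63 with wild type and 0.31 with the vector. CD164, a sialomucin of the endolysosomal system and cell surface, was lower with T164A than with the vector by a difference of -0.67 (SE 0.06, adjusted p = 3.85e-10) and was not called for wild type minus vector (0.13, adjusted p = 0.065). The gel-forming mucin genes MUC19 and MUC6 were lower with T164A than with the vector (differences -2.41 and -2.07). MUC5AC, another gel-forming mucin, exceeded the floor on average only with the wild-type construct, at 3.15, beside -0.37 with T164A and 0.5 with the vector.

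Of 18 other CEACAM and pregnancy-specific glycoprotein genes, 1 was called higher and 3 lower in T164A minus vector. In wild type minus vector 1 was higher and 1 lower, and in T164A minus wild type none was higher and 3 were lower. The 1 higher call was CEACAM21 in both comparisons with the vector, where every group mean was under the floor. CEACAM19 averaged 7.48 with T164A, 8.86 with wild type and 9.34 with the vector. Its differences were -1.85 for T164A minus vector (SE 0.1, limma adjusted p = 7.72e-15) and -0.47 for wild type minus vector (SE 0.09, limma adjusted p = 8.11e-05). PSG4 averaged 2.95 with T164A, 4.65 with wild type and 5.15 with the vector. It was lower with T164A than with the vector (difference -2.2, SE 0.25, limma adjusted p = 1.71e-08).

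The enzymes that build mucin-type O-glycans changed in both directions. Of 26 genes, 13 were higher and 11 lower in T164A minus vector (median with bounds 0.21), 9 higher and 11 lower in wild type minus vector (-0.3), and 10 higher and 12 lower in T164A minus wild type (-0.08). Among the initiating GalNAc transferases, GALNT3 was lower with T164A than with the vector (-1.83, SE 0.07, limma adjusted p = 1.07e-17), whereas GALNT1 (1.92, SE 0.09, adjusted p = 5.03e-16) and GALNT11 (1.42, SE 0.08, adjusted p = 1.4e-14) were higher. GALNT1 and GALNT11 were also higher with wild type than with the vector, by 1.14 and 0.86. GALNT13, a transferase described in neural tissue, averaged 8.45 with T164A, 2.76 with wild type and 4.23 with the vector. FUT3, the fucosyltransferase that makes Lewis antigens, was lower with both constructs than with the vector (-3.7 for T164A and -1 for wild type). GCNT1, which makes the core 2 branch, was higher with wild type than with the vector (1.38, SE 0.08, limma adjusted p = 5.95e-13).

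Of 20 binding partners, signalling partners and sheddases, 4 were higher and 11 lower in T164A minus vector (median with bounds -0.36), 5 higher and 10 lower in wild type minus vector (-0.26), and 6 higher and 9 lower in T164A minus wild type (-0.05). ERBB3, a receptor tyrosine kinase of the EGFR family, differed in sign between the constructs, at -1.73 for T164A minus vector (SE 0.07, adjusted p = 5.16e-17) and 0.59 for wild type minus vector (SE 0.06, limma adjusted p = 3.09e-08). The sheddase gene ADAM10 was lower with T164A than with the vector (-1.6, SE 0.07, limma adjusted p = 3.02e-16), and wild type minus vector was -0.02 (adjusted p = 0.881). CTNNB1, which encodes beta-catenin, was higher with T164A than with the vector (1.23, SE 0.05, limma adjusted p = 1.73e-17). PTPN6, a phosphatase that docks on the CEACAM1 tail, was lower (-1.33, SE 0.08, limma adjusted p = 5.77e-14). LGALS3, the galectin that binds mucin glycans, was lower with T164A (-0.97) and with wild type (-0.72) than with the vector. Among the linkers of membrane proteins to actin, EZR was lower than with the vector with T164A (-0.35) and with wild type (-0.38), and MSN was higher with T164A than with wild type (1.37).

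The genes listed for the upper layers of stratified mucosa, a list that includes cornified-envelope genes, were mostly lower with both constructs. Of 16, none was higher and 15 were lower in T164A minus vector (median with bounds -4.51), and 1 was higher and 13 were lower in wild type minus vector (-0.84). In T164A minus wild type none was higher and 15 were lower (-3.44). The mucosal keratin genes KRT4 and KRT13 were lower with T164A than with the vector by differences of -8.39 and -5.78, the epithelial transcription factor gene ELF3 by -4.65, and the adhesion protein gene LYPD3 by -4.37. In wild type minus vector the differences were -0.76 for KRT13, -0.64 for ELF3, -0.93 for LYPD3 and -2.36 for the cornified-envelope gene SPRR3.

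For the cell type markers, 12 of 12 general epithelial genes were lower and none higher in T164A minus vector (median -2.09), against 5 lower and 3 higher in wild type minus vector (-0.14). Of 12 mesenchymal and neuronal markers, 11 were higher and 1 lower in T164A minus vector (median 3.34), against 4 higher and 5 lower in wild type minus vector (median with bounds -0.25). VIM, the mesenchymal intermediate filament gene, averaged 12.33 with T164A, 7.44 with wild type and 7.54 with the vector. Basal markers were lower for 9 and higher for 2 of 12 in T164A minus vector, and lower for all 12 in wild type minus vector. Of 14 luminal markers, 7 were higher and 4 lower in T164A minus vector, and all 14 were higher in wild type minus vector. In T164A minus wild type, epithelial genes were lower for 12 of 12, mesenchymal and neuronal markers higher for 11 of 12 and lower for 1, basal markers lower for 8 and higher for 3 of 12, and luminal markers lower for 13 and higher for 1 of 14. Of 12 leukocyte, endothelial and fibroblast markers 11 were measured, of which 6 had both group means under the floor in T164A minus vector, with 1 higher and 5 lower. Their counts were 1 higher and 4 lower in wild type minus vector, and 1 higher and 3 lower in T164A minus wild type.

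**Figure D4:**
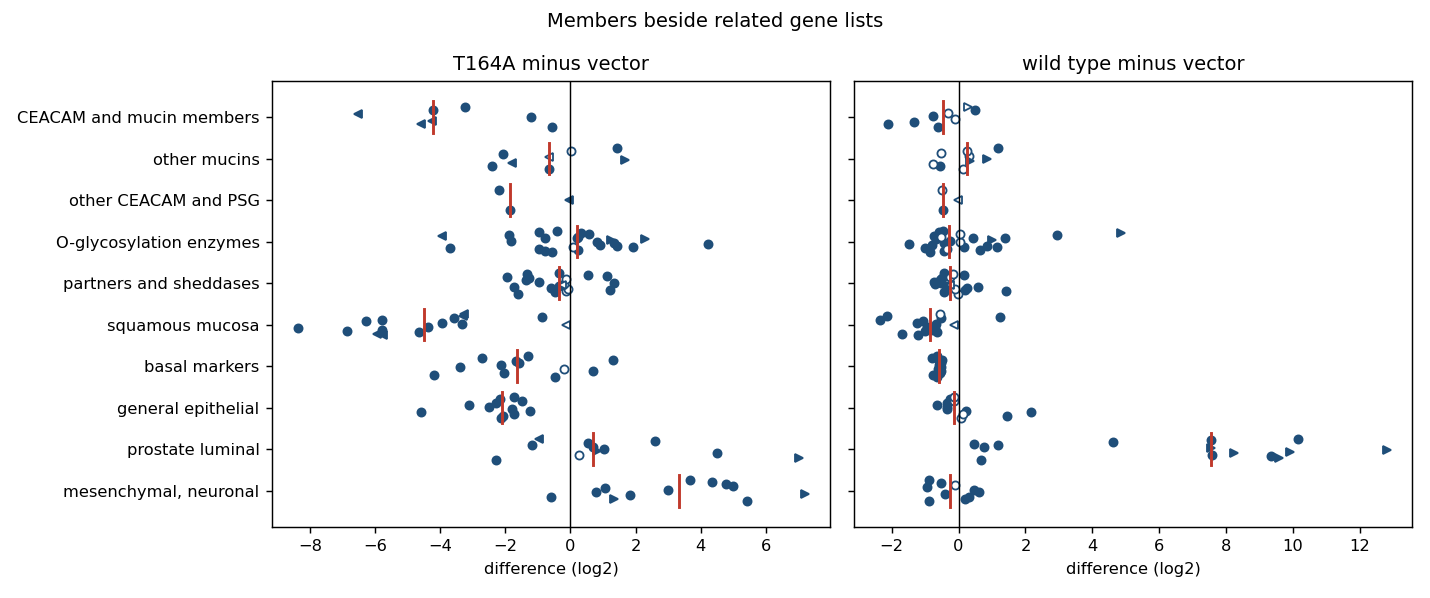
Differences (x axis, log2) of the single genes of each list (rows) for T164A minus vector and wild type minus vector, with bounds against the floor as triangles, filled symbols for calls, and a red bar at the list's median with bounds. Genes with both group means under the floor are not drawn. In T164A minus vector the 7 members drawn, all called lower, had a median of -4.23, beside a fitted median of -2.22 over all 10. The median with bounds was -4.51 for squamous mucosa genes and 3.34 for mesenchymal and neuronal markers.

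The symbols with the most similar profile were found by the root mean square of differences between mean-centred log2 values over the 16 libraries, among 12414 symbols with a group mean of at least 6. They are a description of 16 libraries that fall into 3 groups. For MUC15 they were CLCA2, FABP5 and IVL, each at 0.35. CEACAM6 lay nearest to KRT6C (0.41), SPRR1A (0.46) and AQP3 (0.47), and CEACAM5, with its wide spread, nearest to RPTN (0.85), SERPINB2 (0.9) and SERPINB3 (0.93). For MUC16 the nearest were DDX60L (0.27), PRDM1 (0.28) and TRIM22 (0.3), and for MUC20 they were ZNF528 (0.27), FAM111A (0.28) and TMEM125 (0.32). MUC1 lay within 0.15 of IFFO2 (0.13), PDZD2 (0.14) and RNF152 (0.15). CEACAM1 was nearest to SLC2A9 and ZNF250 (0.2 each) and KIAA1919 (0.21), and MUC4 to CD37 (0.54), ANP32C (0.56) and TTC39A (0.57). None of the 24 neighbours was itself a member. CEACAM1, CEACAM7, MUC4 and MUC13 had no group mean of at least 6 and so could not be chosen.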

How the data were processed

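Poly-A RNA was prepared with TruSeq kits and sequenced on an Illumina instrument, per the labels' protocols. GRCh37, DESeq, Cufflinks 2.0.2, TopHat2 2.0.4 and CASAVA 1.8.2 appear without roles in the submitters' processing notes. The deposited table holds log2 values in 21594 rows, 1 column per library. Their transform, the counting method and its strandedness are not given in the sources used here. Tested on the table, 2 to the power of the log2 value, less an offset of 1.89, lay on equal steps above 11.5 (100% within 0.05 step) but for only 8.38% to 11.3% of values between 10 and 10.5. Reads were therefore not recovered, no count test was run, and the floor of 3 reads (2.30) and the depths are estimates.

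For 304 symbols on 1732 rows the row with the highest mean was kept. All 16 libraries entered 1 limma 3.58.1 model with a variance trend (R 4.3.3), with no filter, checked on simulated data. Library pairs differed by a chi-square per degree of freedom of 4.34 to 152 over 547 genes, so none was counted as a duplicate. Pairs under 38 were called close and joined into sets, and vector libraries 1 and 5 fell just over that limit at 39.35. The sets were T164A 91, 92 and 94, wild-type 13 and 15 to 18, vector 1 and 2, and vector 3, 4 and 6. T164A library 93, wild-type library 14 and vector library 5 stood alone, so averaging close libraries left few values per group.

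All 10 members are reported, and from each list the counts and up to 4 genes per comparison with the smallest p, of which the text names some, plus genes said to be singled out. Members and lists were chosen with earlier results of these data known. Alternatives were other scalings, filters, variance models and sets of libraries. Promoter windows and gene order come from RefSeq tables of GRCh38.p14, and transcript lengths and 50-base sharing from GENCODE v29, not the authors' annotation. Gene order is by start position, and sharing counts matches on either strand. The level of the introduced gene is not reported here.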

Additional observations from a re-analysis of the deposited data

Results flagged for a closer look

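In 30 groups of values (10 genes in 3 groups), 3 held a library whose gap to its nearest neighbour exceeded Dixon's 95% critical value, where chance gives about 1 in 20. The CEACAM6 value of 4.7 in wild-type library 18 stood below the next value of 5.22, a gap of 0.717 of the group's range in 6 libraries. The MUC4 value of -0.17 in vector library 1 stood below the next value of 2.16, a gap of 0.742 of the range, with both under the floor of 2.30. The MUC20 value of 5.78 in vector library 2 stood below the next value of 6.17, a gap of 0.663 of the range.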

How the results depend on the processing

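Over 23 differences of members and 26 settings, 574 of 598 values kept direction and side of the threshold, 17 lost a call, 2 gained one and 5 changed sign. The cause of these changes was not tested. Those that changed sign were all differences that are not called: T164A minus wild type of CEACAM1, 0.04 as reported, was -0.29 under quantile normalization (adjusted p = 0.197), -0.05 with close libraries averaged (adjusted p = 0.914), and from -0.04 to 0.12 on leaving out 1 library, being -0.04 without wild-type library 13 and -0.01 without T164A library 91. Wild type minus vector of MUC1 was 0.06 without vector libraries 1 and 2, a setting chosen after seeing the data.

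For wild type minus vector, 5 members were called as reported, against 3 with a minimum fold of 1.2, 2 with close libraries averaged and 3 without vector libraries 3, 4 and 6. The 1 member called higher (MUC20) became 0 under quantile normalization, with the minimum fold, with close libraries averaged, without vector libraries 3, 4 and 6, and without vector libraries 1 and 2, and ranged from 0 to 1 on leaving out 1 library. The 4 called lower became 2 with close libraries averaged. Over all symbols, 9183 calls (4244 higher and 4939 lower) became 4091 (2513 and 1578) with the minimum fold and 3821 (2274 and 1547) with close libraries averaged. Wild type minus vector of MUC20 lost its call at 0.39 with close libraries averaged, 0.6 without vector libraries 3, 4 and 6, and 0.38 without vector libraries 1 and 2. Every member call of T164A minus vector and T164A minus wild type held in all settings, apart from CEACAM1 against the vector with the minimum fold (adjusted p = 0.106).

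For the named list genes, 2984 of 3016 values kept direction and side, 27 lost a call, 5 gained one and none changed sign. Counts of list genes moved by over 1.5 times in 79 of 1560 values. No paired analysis was possible because the groups share no replicate numbers. Depth limits CEACAM7, MUC4 and MUC13, and the size of the T164A differences of CEACAM5, CEACAM6 and MUC15, which are bounds.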

Other observations

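Within the O-glycosylation genes, 2 patterns were singled out after their values were seen. ST6GALNAC1, the sialyltransferase that makes the sialyl-Tn antigen carried on mucins, averaged 1.07 ± 0.81 (SD, n = 4) in T164A libraries, 7.16 ± 0.4 (SD, n = 6) in wild-type libraries and 2.22 ± 1.22 (SD, n = 6) in vector libraries. It was at least 28.9-fold lower with T164A than with wild type (limma adjusted p = 2.16e-11) and at least 28.9-fold higher with wild type than with the vector (limma adjusted p = 5.96e-10). GALNT5, an initiating GalNAc transferase, averaged 4.59 ± 0.15 (SD, n = 4) in T164A libraries and lay under the floor in every wild-type and vector library. It was at least 4.91-fold higher with T164A than with the vector (limma adjusted p = 3.46e-08).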
